A study of Mus musculus with 12 samples.

Results

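SR proteins and heterogeneous nuclear ribonucleoproteins (hnRNPs) are the abundant RNA-binding proteins that decide which exons a cell joins. SR proteins carry a domain rich in arginine and serine, bind mostly within exons and recruit the spliceosome, while hnRNPs coat nascent transcripts and often repress the sites they cover. Genes of both families are known for regulating themselves through poison exons, whose inclusion brings a premature stop codon and sends the mRNA to nonsense-mediated decay, and in T cells the family is known for the alternative splicing of the phosphatase CD45. The genes described here are those with a symbol of Srsf plus a number (10 genes), those starting with Hnrnp (20 genes, pseudogenes left out), and Tra2a, Tra2b, Ptbp1, Ptbp3, Pcbp1 and Pcbp2. They are 36 of the 55335 genes counted, and all 36 passed the filter on low counts in every comparison.

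Thymocytes, the developing T cells of the thymus, came from 6-week-old mice, wild type (WT) or lacking the microRNA pair miR-181a/b-1 (KO), with no other treatment named. RNA-seq and ribosome footprinting, which sequences the mRNA stretches that ribosomes shield from nuclease, gave 3 libraries for each genotype and assay, 12 in all. Cells were put into buffer with 0.1 mg/ml cycloheximide, an inhibitor that stalls ribosomes. The labels name neither the strain of the mice nor the way in which the pair was deleted, and they do not say which RNA-seq and footprint libraries share a mouse.

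The 5p strands of the deleted pair are shown because they define the genotype. Sequences are from RefSeq (GRCm38.p6), with the seed, bases 2 to 8, in capitals. The first maps to chr1:137966468-137966490 and the other to chr1:137966650-137966673, both on the plus strand, and both carry the same seed.
mmu-miR-181a-5p: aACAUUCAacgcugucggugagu
mmu-miR-181b-5p: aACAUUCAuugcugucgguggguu
Matches to this seed in the transcripts of the 36 genes were not analysed here.

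Reads assigned to genes numbered 4479182 to 8180286 per RNA-seq library and 4069968 to 17859770 per footprint library, the fewest in KO replicate 3. The row of Mir181a-1 had 1535 to 2898 footprint reads in WT and 4 to 16 in KO. In RNA-seq it had 7 to 25 reads in libraries labelled WT and 10 to 41 in those labelled KO, so it does not check the RNA-seq labels, and directions in RNA-seq are given by label. Mir181b-1 had 0 reads in every library, which allows up to 0.168 to 0.737 CPM (reads scaled to a common library size) for a limit of 3 reads. The 12 thymocyte markers summed to 14267 to 16010 CPM in WT-labelled and 12930 to 14503 in KO-labelled RNA-seq, and 10 genes of cell division overlapped between genotypes in both assays. Single thymocyte markers differed in footprints at an edgeR adjusted p under 0.05, where 17.6% of all genes did. Cd4 (log2 fold change of KO against WT 0.57) and Themis (0.23) were higher, and Rag1 (-0.30), Ptcra (-0.37) and Lck (-0.12) lower. With the replicate number in the fit Cd4 alone of the 12 stayed under it, where 3.02% of all genes did. In RNA-seq none of the 12 did, against 6.91% of all genes. Erythroid markers were at 77.8 to 94.6 CPM in WT-labelled and 44.0 to 57.2 in KO-labelled RNA-seq, and markers of thymic epithelium and stroma at 35.4 to 36.5 and 30.6 to 31.6 CPM. In footprints both sums overlapped between genotypes. Single genes went both ways in RNA-seq, with log2 fold changes from -1.11 (Hbb-bt) to 0.09 (Hba-a1) and from -1.07 (Krt5) to 0.64 (Pdgfrb). B cell markers were at 43.5 to 57.4 CPM in WT and 56.3 to 74.8 CPM in KO footprints. In RNA-seq they were at 12.3 to 17.6 and 16.1 to 22.9 CPM, with overlap in both assays. Of the 5 B cell genes, Cd79b alone differed in footprints, higher in KO (log2 fold change 0.48, edgeR adjusted p 0.00416). With the replicate number in the fit it stayed under 0.05 (edgeR adjusted p 0.0466). Markers of myeloid and dendritic cells overlapped between genotypes in both assays, and no marker gene was at 0 throughout a group. The part of these shifts in the results was not tested, and in bulk samples fewer cells of a type and less RNA per cell cannot be told apart.

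The deposited counts are called adjusted, and deviations of same-numbered WT and KO libraries from their group means mirror each other. Across the 36 genes they correlated at -0.998 to -0.984 in RNA-seq and at -0.999 to -0.998 in footprints, as a description across genes. With such values the spread within a group may not measure the spread between mice, and fits that leave out the replicate number may call too many genes. The SDs, SEs and adjusted p-values (FDR, Benjamini-Hochberg over all genes tested) carry that limit, and a gene is called at an edgeR FDR under 0.05. The fit with the replicate number as a block is given where it ends a call.

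In WT thymocytes the amount of footprints relative to RNA-seq ran over a 42.8-fold range within the family. By this amount, 8 of the 36 genes lay above the upper quartile of protein-coding genes and 7 below the lower quartile. The spread was thus close to that of protein-coding genes and is not particular to the family. The log2 ratio of footprints to RNA-seq, from an edgeR fit of the 6 WT libraries, had a median of 0.56 over the 36 genes, against -0.02 over the 14385 genes tested and 0.21 over the 11234 protein-coding genes among them. By the FDR, 25 of the 36 were called higher in footprints, where 41.9% of all genes were, and 10 were called lower, where 43.4% of all genes were, so that 85.3% were called in either direction. These 35 calls held with the block, at which 85.8% of all genes were called, and without any 1 WT library. The ratio is relative to other genes. Untranslated regions, which hold RNA-seq reads and few footprints, nuclear RNA and reads with several alignments all enter it, and their part was not tested; transcript lengths were not used, so levels are not compared between genes.

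**Figure D1:**
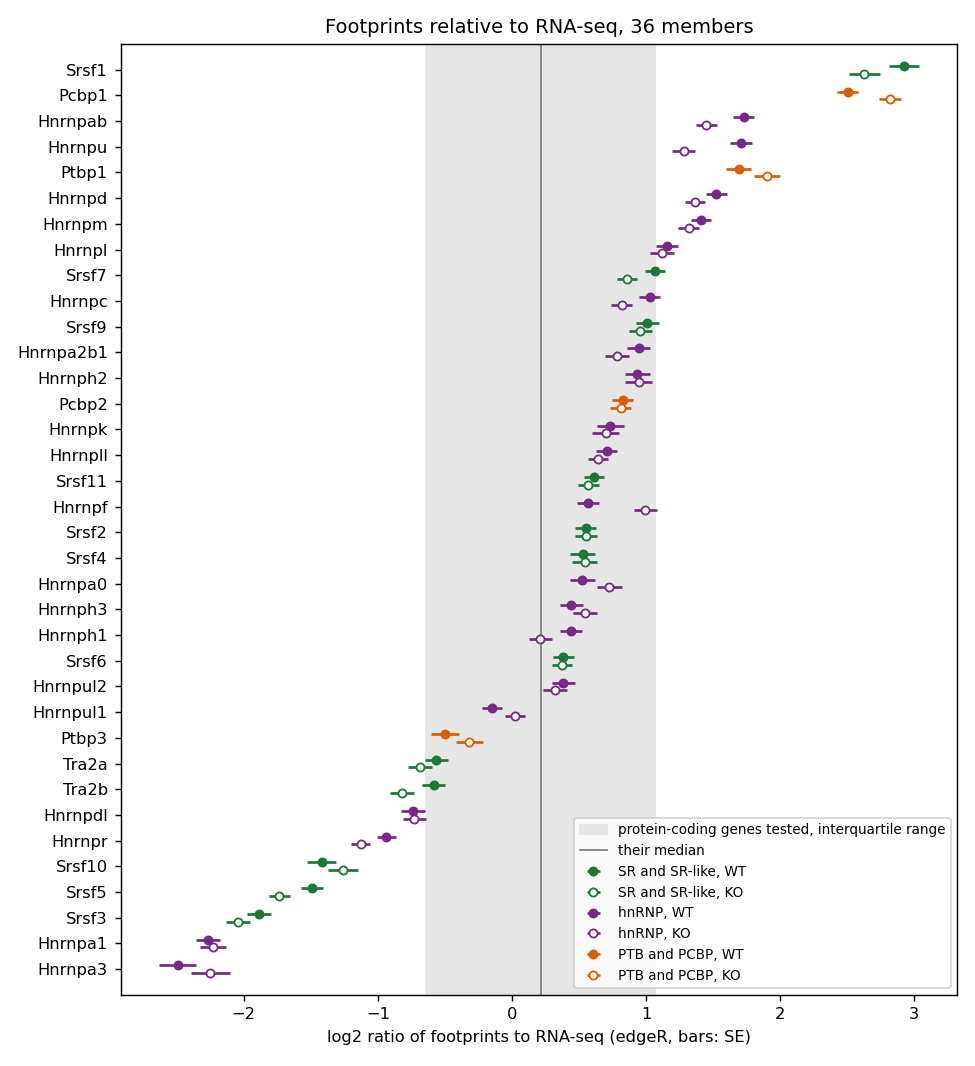
Log2 ratio of footprints to RNA-seq (x axis) for each of the 36 genes (y axis), filled points for WT and open points for KO libraries, bars as SE from edgeR (n = 3 libraries per assay). The grey band is the interquartile range of protein-coding genes in WT and the line their median of 0.21; Srsf1 and Pcbp1 lie above 2, and Hnrnpa3 and Hnrnpa1 below -2 in both genotypes.

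Among SR genes the ratios were split. Srsf1, the founding SR protein, had the highest ratio of the family, at 2.92 (SE 0.12), above 99.0% of protein-coding genes. In RNA-seq it had 15.7, 14.8 and 18.0 CPM in WT replicates 1 to 3, and in footprints 105, 87.4 and 112 CPM. In reads, its WT RNA-seq values rest on 99, 106 and 131, the fewest of the 36 genes. Srsf3, the smallest SR protein, lay at the other end, with a ratio of -1.89 (SE 0.09). It had 300.0, 312 and 263 CPM in WT RNA-seq and only 60.0, 65.1 and 69.7 CPM in footprints. Every Srsf3 footprint library was thus below every Srsf3 RNA-seq library, and every Srsf1 footprint library above every Srsf1 RNA-seq library. Both genes were named for their extreme ratios, so this separation follows from the choice. The share of all genes without overlap between assays was not computed.

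Of the other SR genes, Srsf5 (-1.49, SE 0.08) and Srsf10 (-1.42, SE 0.11) were also low, at percentiles 9.55 and 10.4 of protein-coding genes. The paralogs of Drosophila transformer-2, which bind exonic enhancers together with SR proteins, had ratios of -0.56 for Tra2a and -0.58 for Tra2b (SE 0.09 each). Srsf6 (0.38), Srsf4 (0.53), Srsf2 (0.55) and Srsf11 (0.61) lay between the median and the upper quartile of protein-coding genes, and Srsf9 (1.01) and Srsf7 (1.07) just under the upper quartile of 1.07. Some relatives thus stood at different ratios, such as Srsf3 (-1.89) and Srsf7 (1.07), which both adapt mRNA for nuclear export, and Srsf5 (-1.49) and Srsf6 (0.38). Others were close, such as Tra2a and Tra2b, and Srsf4 and Srsf6. No test was made between genes.

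The hnRNP genes had a median ratio of 0.64, with 15 of 20 called higher in footprints and 4 lower, where 41.9% and 43.4% of all genes were. The highest was Hnrnpab, a relative of the AU-rich element binding protein Hnrnpd, at 1.73 (SE 0.08). Its WT values were 439, 425 and 456 CPM in RNA-seq and 1201, 1163 and 1233 CPM in footprints. Hnrnpu, a scaffold protein of nuclear RNA and chromatin, followed at 1.71, Hnrnpd at 1.52, Hnrnpm at 1.41, and Hnrnpl, a repressor of variable CD45 exons, at 1.16. Its paralog Hnrnpll, which is induced in T cells and acts on the same exons, was at 0.71. Hnrnpul1 was the only one of the 36 not called, at -0.15 (SE 0.08, edgeR FDR 0.0867), and it is called under 4 of the alternatives, the highest FDR among them 0.0462.

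Hnrnpa3 and Hnrnpa1, both of the A/B group of abundant repressors of splicing, had the lowest ratios of the family, -2.49 (SE 0.14) and -2.27 (SE 0.09). Hnrnpa3 had 31.95, 27.6 and 25.5 CPM in WT RNA-seq against 3.55, 4.31 and 4.64 CPM in footprints, and Hnrnpa1 had 100.2, 109 and 94.1 CPM against 15.9, 17.3 and 19.0 CPM. Neither gene overlapped between assays, which follows from their choice as the lowest ratios, and for how many of all genes this holds was not computed. Hnrnpa1 has near-identical processed copies in the genome, and the counting set apart reads with several alignments, which made up 13.1% to 20.5% of counted reads in RNA-seq and 17.7% to 18.6% in footprints. The values of Hnrnpa1 are therefore uncertain. Those of Hnrnpa3 may be too, but whether it has such copies was not examined, and these shares are over whole libraries. The part of such reads in the low ratios of both genes was not tested. The rows of the pseudogenes Hnrnpa1l2-ps and Hnrnpa1l2-ps2 held 1 and 7 RNA-seq reads and 13 and 12 footprint reads over all libraries. The relatives Hnrnpa0 (0.53) and Hnrnpa2b1 (0.95) were higher in footprints.

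Paralogs of the PTB and PCBP groups also stood at different ratios. Ptbp1, the polypyrimidine tract binding protein that represses many exons outside neurons, had a ratio of 1.69 (SE 0.09), and its paralog Ptbp3 had -0.50 (SE 0.10). Pcbp1, a poly(C)-binding protein encoded by an intronless gene, was 5.67-fold higher in footprints (SE 0.08 on the log2 scale), at 105, 103 and 109 CPM in WT RNA-seq against 510, 493 and 476 CPM in footprints, while Pcbp2 had 0.83 (SE 0.08).

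The same pattern was present in the KO libraries, which share no library with those of WT although same-numbered libraries mirror each other. In KO, 25 of the 36 were called higher and 10 lower, where 41.7% and 42.1% of all genes were. The sign was the same as in WT for 35 of 36 genes, with Hnrnpul1 as the exception (0.025 in KO). The ratios of WT and KO correlated at 0.989 across the 36 genes, as a description, and 33 of them lay within 0.3 of each other.

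Lists of other splicing genes were set beside the family. Of all genes, 41.9% were called higher in footprints in WT and 43.4% lower, and protein-coding genes had a median ratio of 0.21. Of 36 core spliceosome genes, 32 were called higher in footprints in WT and 3 lower, with a median ratio of 1.49, from -1.33 for Snrpg to 2.95 for Snrpd3, both components of the Sm ring of snRNPs. The 39 other RNA-binding regulators of splicing had a median of -0.04, with 16 called higher and 14 lower. A list of kinases of SR proteins, transport and export factors, and exon junction-associated partners such as Sap18 and Acin1, of which 16 were tested, had a median of -0.25, from -1.91 for Sap18 to 0.54 for Acin1, with 4 higher and 11 lower, and the 15 factors of nonsense-mediated decay a median of 0.50, with 9 higher and 5 lower. No test was made between lists.

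**Figure D2:**
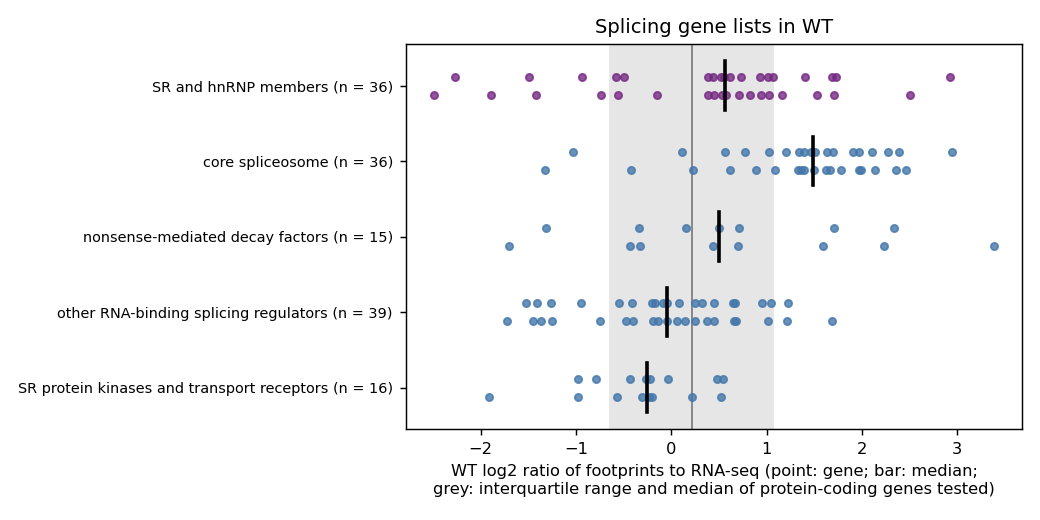
WT log2 ratio of footprints to RNA-seq (x axis) of each gene (points) in the SR and hnRNP family and in 4 lists of other splicing genes (y axis), with the median of each as a black bar; the grey band and line are the interquartile range and median of protein-coding genes. The family reaches from -2.49 to 2.92 around a median of 0.56, and the core spliceosome genes have a median of 1.49.

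The genotypes were compared to ask whether loss of miR-181a/b-1 shifts the family. In RNA-seq differences were small: log2 fold changes of KO against WT ran from -0.22 for Ptbp1 to 0.32 for Hnrnpr, and 30 of 36 lay within 0.2 of 0, with a median SE of 0.08. The median was 0.06, against -0.0005 over all 13652 genes tested, and 25 of the 36 were positive, where 49.9% of all genes were. Hnrnpr was the one gene called, a share of 2.78% against 6.91% of all genes in either direction and 3.48% higher; DESeq2 also called 1, against 3.90%. At an unadjusted p under 0.05 edgeR found 8 of the 36, or 22.2%, against 23.8% of all genes.

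Hnrnpr encodes a close relative of the mRNA-binding protein Syncrip (hnRNP Q). Its RNA-seq level was 340.1, 344 and 340.2 CPM in the WT-labelled libraries and 429, 425 and 426 CPM in the KO-labelled ones. The groups did not overlap, and values within each group were nearly equal. It rose by 0.32 on the log2 scale (SE 0.05, edgeR FDR 0.0136). The call was lost with the replicate block (FDR 0.407), at which 0.806% of all genes were called, and without any 1 of the 6 libraries (FDR 0.0561 to 0.0812, log2 fold change 0.31 to 0.33).

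KO-labelled libraries did not overlap WT-labelled ones in 10 of the 36 genes, or 27.8%, where 30.9% of all genes did not overlap. Of the 36, 9 did not overlap and were higher in KO-labelled libraries, as were 15.5% of all genes: Hnrnpr, Hnrnpu, Srsf7, Srsf5, Hnrnpc, Hnrnph3, Hnrnph1, Tra2a and Hnrnpdl. Pcbp1 was the one of the 36 that was lower, as were 15.4% of all genes. Hnrnpu (log2 fold change 0.27, edgeR FDR 0.0536), Srsf5 (0.20, FDR 0.0677), Hnrnph3, a relative of the G-run binding hnRNP H proteins (0.23, FDR 0.0705), Hnrnpc, which binds uridine tracts (0.20, FDR 0.0743), and Srsf7 (0.27, FDR 0.0864) missed the threshold; Srsf7 alone of these passed it in the joint fit of the 12 libraries (FDR 0.0183).

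In footprints 5 of the 36 genes were called, or 13.9%, where 17.6% of all 13509 genes were. Ptbp3, Hnrnpf, Pcbp1 and Hnrnpr rose (higher calls were 9.25% of all genes) and Hnrnpab fell (lower calls were 8.34%). DESeq2 also called 5, with Hnrnph3 in place of Hnrnpr, against 9.14% of all genes. At an unadjusted p under 0.05 edgeR found 11 of the 36, or 30.6%, against 33.1% of all genes. The median over the family was -0.009, as over all genes, and 16 of the 36 were positive, where 48.4% of all genes were. None of the 12 SR and SR-like genes was called by edgeR, at log2 fold changes from -0.22 for Tra2b to 0.13 for Srsf10; 2 of them were at an unadjusted p under 0.05, and DESeq2 called none. All 5 calls were lost with the replicate block, at which 3.02% of all genes were called.

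Ptbp3, the PTB paralog known from blood cells, showed the largest called rise. Its footprints were at 217, 230.2 and 216 CPM in WT and 289, 271 and 288 CPM in KO, with no overlap. The log2 fold change was 0.36 (SE 0.04, edgeR FDR 0.00455), it held without each single library (FDR 0.013 to 0.0206), and it was lost with the block (FDR 0.0561) and in the joint fit (FDR 0.067). In RNA-seq the groups overlapped, at 404, 425 and 310.4 CPM against 408, 379 and 502 CPM.

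Hnrnpf, which binds runs of guanines, had 58.7, 58.6 and 61.4 CPM of footprints in WT and 73.1, 73.0 and 69.5 CPM in KO, again with no overlap. It rose by 0.28 on the log2 scale (SE 0.04, edgeR FDR 0.00658). The call held without each single library (FDR 0.0183 to 0.0403) and not with the block (FDR 0.159). Its RNA-seq values overlapped between genotypes, at 49.4, 45.3 and 51.5 CPM against 43.7, 48.1 and 41.4 CPM.

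Pcbp1 footprints were at 510, 493 and 476 CPM in WT and 547, 567 and 583 CPM in KO, and its RNA-seq values at 105, 103 and 109 CPM against 98.6, 101 and 94.1 CPM. The genotypes did not overlap in either assay, with KO higher in footprints and lower in RNA-seq. The footprint rise was 0.20 (SE 0.04, edgeR FDR 0.0248). It was lost with the block (FDR 0.286), with no filter on low counts (FDR 0.0566), and without replicate 2 or 3 of either genotype (FDR 0.078 to 0.0928); the RNA-seq difference was not called (-0.11, edgeR FDR 0.282).

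Hnrnpab was the one gene that fell, from 1201, 1163 and 1233 CPM of footprints in WT to 1012, 1042 and 979.7 CPM in KO, with no overlap. The log2 fold change was -0.24 (SE 0.04, edgeR FDR 0.0109). The call held without each single library (FDR 0.029 to 0.0491) and not with the block (FDR 0.185). RNA-seq of Hnrnpab overlapped, at 439, 425 and 456 CPM against 454, 472 and 432 CPM. Hnrnpab is overlapped by Phykpl in the RefSeq annotation. The counting set apart ambiguous reads, which fall on several genes, at 1.38% to 1.68% of counted reads in RNA-seq and 2.98% to 3.65% in footprints. Hnrnpab may thus lack reads where the genes overlap. In that annotation 13 of the 36 overlap another gene, Hnrnpf and Hnrnph3 among them, and whether the counting used strand is not given in the sources used here.

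Hnrnpr footprints rose least, by 0.13 (SE 0.03, edgeR FDR 0.0387), from 144, 148 and 147 CPM to 163, 159 and 158 CPM, with no overlap. This call was lost with the block (FDR 0.497), under DESeq2 (adjusted p 0.293), with no filter on low counts (FDR 0.236), in the joint fit (FDR 0.0901) and without any 1 library (FDR 0.085 to 0.137). Hnrnph3 missed the threshold at a larger difference, 0.33 (SE 0.09, edgeR FDR 0.0566), and passed it under DESeq2 (adjusted p 0.0272). Hnrnpa3 had the largest value, 0.40 (SE 0.15, edgeR FDR 0.121), from 49 to 77 reads per WT library and 19 to 78 per KO library.

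Groups did not overlap in footprints in 12 of the 36 genes, or 33.3%, where 38.1% of all genes did not overlap; 9 of the 36 were higher in KO, as were 18.5% of all genes, and 3 of the 36 (Hnrnpab, Hnrnpd and Tra2b) were lower, as were 19.6%. The authors' deposited table labels Hnrnpr as significant in RNA-seq, where it labels 4.12% of its genes, and in footprints Ptbp3, Hnrnph3, Hnrnpf and Pcbp1 as up and Hnrnpab as down, where it labels 10.6%.

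**Figure D3:**
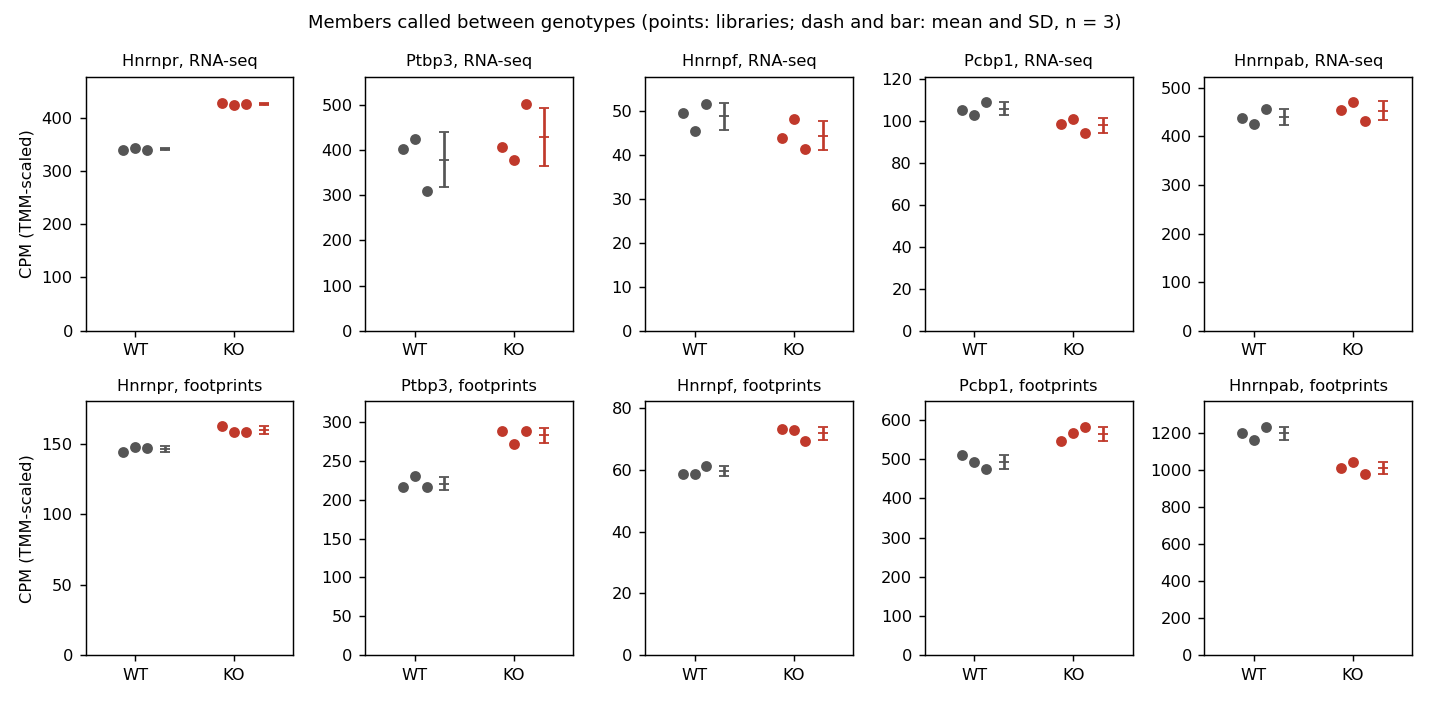
CPM scaled by TMM (y axis, from 0) in each library (points) of the 5 genes called between genotypes, RNA-seq above and footprints below, with mean and SD (n = 3) beside them. Hnrnpr was called in both assays; Ptbp3, Hnrnpf and Hnrnpab do not overlap between genotypes in footprints and overlap in RNA-seq.

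**Figure D4:**
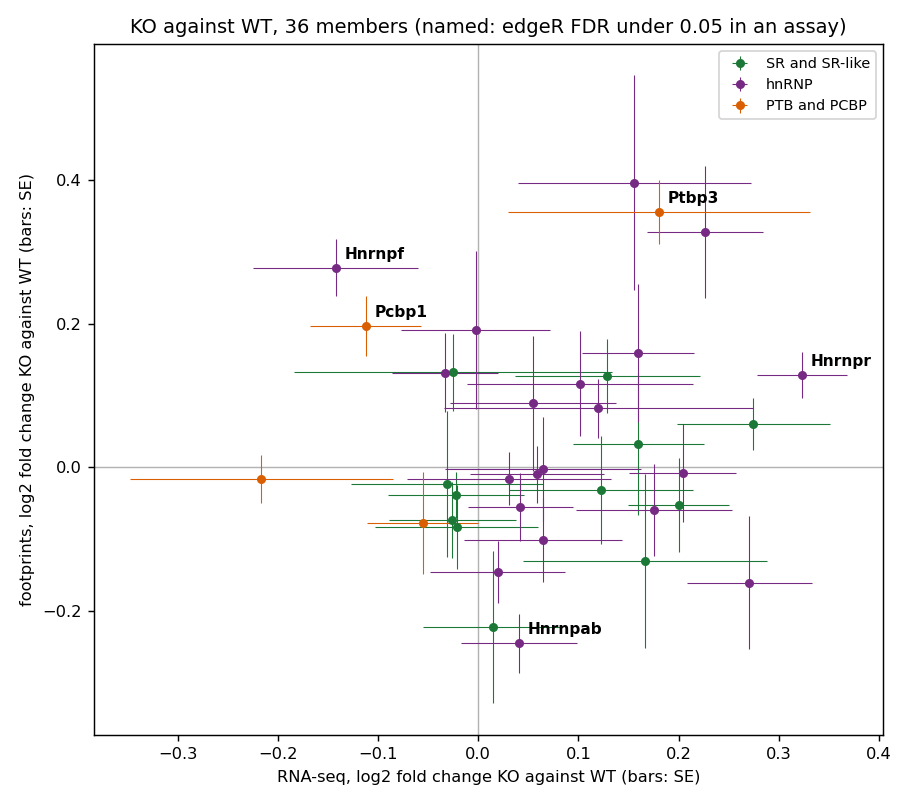
Log2 fold change of KO against WT in RNA-seq (x axis) and in footprints (y axis) of the 36 genes, bars as SE from edgeR. The 5 called genes are named; 30 of 36 genes lie within 0.2 of 0 in each assay.

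Whether footprints changed beyond RNA-seq was tested in 1 edgeR model of all libraries, with a term for genotype by assay. None of the 36 genes was called, where 0.211% of 11854 genes were; DESeq2 called none, against 0.472%. At an unadjusted p under 0.05 lay 9 of the 36, against 14.0% of all genes. With the block within each assay none was called, against 0.0169%, and 2 of the 36 (Hnrnpu and Hnrnpf) lay under that p, against 3.28%. Values ran from -0.43 for Hnrnpu (SE 0.12, edgeR FDR 0.150) to 0.42 for Hnrnpf (SE 0.09, FDR 0.0951), with Pcbp1 at 0.31 (FDR 0.115), Srsf1 at -0.30 (SE 0.19, FDR 0.523) and Hnrnpab at -0.29 (FDR 0.141). Of the 36, 23 had a negative value and 13 a positive one, where 52.0% of all genes had a positive one, at a median of -0.05 against 0.01 over all genes; among the 12 SR and SR-like genes 10 were negative. The median SE was 0.11.

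Among other splicing genes, the shares called in footprints were 18.8% of the kinases and partners of SR proteins, 2.78% of core spliceosome genes, 18.4% of other regulators and 6.67% of decay factors, against 17.6% of all genes. In RNA-seq they were 6.25%, 2.78%, 2.56% and 0 of 15, against 6.91% of all genes. In the list of kinases and partners (16 tested), Clk1, a kinase that phosphorylates SR proteins, rose in RNA-seq (log2 fold change 0.25, edgeR FDR 0.0319). In footprints its relative Clk2 rose (0.33, FDR 0.00358), and the mRNA exporter Nxf1 (-0.14, FDR 0.0224) and the importin Tnpo2 (-0.21, FDR 0.0366) fell. Of 36 core spliceosome genes 1 fell in each assay, Sf3a1 in RNA-seq (-0.33, FDR 0.0286) and Snrpd3 in footprints (-0.17, FDR 0.0459). Of 15 factors of nonsense-mediated decay, Smg8 fell in footprints (-0.20, FDR 0.0376), and none was called by edgeR in RNA-seq, where 3 were at an unadjusted p under 0.05.

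Of the 39 other RNA-binding regulators, Pcbp3 fell in RNA-seq (-0.69, edgeR FDR 0.0118), and of the 38 tested in footprints 4 rose and 3 fell. Mbnl1, a muscleblind splicing regulator, rose by 0.41 in footprints (SE 0.04, edgeR FDR 0.00169, with the block 0.0335), and Celf2 (0.22, FDR 0.00616) and Celf1 (0.30, FDR 0.023), which bind GU-rich sequences, rose as well; Raly was the other gene that rose, and Luc7l, Pcbp3 and Syncrip fell. Of the 15 calls in these 4 lists, that of Mbnl1 was the one kept with the block. DESeq2 ended 10 of the 15 (adjusted p 0.0779 to 0.222) and kept those of Mbnl1, Celf2, Clk2, Syncrip and Pcbp3 in footprints. The joint fit ended 8, among them Celf2 (edgeR FDR 0.212) and Clk1 (FDR 0.247), and leaving out the filter ended 5, Clk1 among them (FDR 0.0802). Mbnl1, Celf2 and Clk2 kept their calls in 6 of 6 omissions of 1 footprint library, and the other genes in 2 or fewer. In the test of footprints beyond RNA-seq edgeR called no gene of the 4 lists; at an unadjusted p under 0.05 were 1 of the 16 kinases and partners, 5 of the 36 core spliceosome genes (13.9%), 6 of the 38 other regulators (15.8%) and 3 of the 15 decay factors, against 14.0% of all genes.

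Features outside the rule were read from RefSeq. It lists a median of 5 transcripts for the 36 genes against 2 for all 21900 protein-coding genes, and a non-coding transcript beside the coding ones for 47.2% of them against 16.2%; Hnrnpa0, Pcbp1 and Srsf6 have 1 transcript each. Counts per gene do not separate such transcripts. Promoter windows, 250 bases before to 50 after the start of transcription (RefSeq, GRCm38.p6; the highest count where a gene has several windows), were found for 33 of the 36. They held a median of 32 CpG dinucleotides (the letters CG, which read the same on both strands) against 15 over 17492 protein-coding genes. At least 10 were present in all 33, where 59.5% of all genes had that many. These comparison sets hold genes that thymocytes may not express, while all 36 passed the filter on low counts. No set of expressed genes was compared. Genes with more transcripts may also have more windows to take the highest count from, and the part of this was not tested.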

How the data were processed

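Groups follow the library titles. The authors deposited read counts for each Ensembl gene, in whole numbers and named as adjusted; the sources used here do not say what was adjusted, nor the genome build or annotation. Per the submitters' processing notes, FastQC, Bowtie2 2.5.1, STAR 2.7.10a, HTSeq 2.0.3 and DESeq2 1.40.2 were used; 5 rows of the deposited tables hold reads that htseq-count gives to no gene. These rows were left out of all tests; genes took 27.0% to 28.5% of counted reads in RNA-seq and 72.3% to 73.1% in footprints. The authors also deposited a table of their own comparison per assay, with log2 fold changes and p-values, whose 12 columns of per-library values were not used. Its symbols define the 36 genes.

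Each comparison was fitted on all genes with edgeR 4.0.16 in R 4.3.3 (TMM, filterByExpr with a minimum count of 10, quasi-likelihood test, Benjamini-Hochberg adjustment): KO against WT within each assay, their interaction with TMM within each assay, and footprints against RNA-seq in the 6 WT libraries. The SE is the log2 fold change divided by the square root of F, and CPM values are TMM-scaled within each assay, so the ratio is not their quotient. CPM sums of markers and the CPM limits for 0 reads use the plain total of reads in genes. Every called gene, the 3 highest and 3 lowest ratios, and up to 3 called genes per list and assay are named; other genes were chosen after their values were seen. A planned order by footprints per coding length could not be made without lengths. On simulated counts with 2-fold changes (1 on the log2 scale) the fits recovered 92.9% of 198 changed genes in RNA-seq, 93.0% of 200 in footprints, 80.8% of 198 for the interaction and 97.0% of 200 for the ratio. Unchanged genes called numbered 6, 12, 8 and 10 in the same order. The simulated libraries were independent and did not mirror each other, and every genotype difference of the 36 genes was smaller than 2-fold. These shares therefore do not measure power or error for the genotype results. The 36 genes and all lists were chosen with earlier results of these data known. The alternatives tried were DESeq2 1.42.0, scaling by RLE size factors, leaving out the filter, the replicate block, a joint fit and the omission of each library. The design names 3 mice per genotype, and p-values measure only the spread between these libraries.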

Additional observations from a re-analysis of the deposited data

How the results depend on the processing

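Deviations from group means of same-numbered WT and KO libraries correlated at -0.983 to -0.96 over 9814 genes in RNA-seq and at -0.98 to -0.969 over 9902 in footprints. Between differently numbered libraries they correlated at 0.234 to 0.687 and 0.332 to 0.64. Libraries of the same number were thus linked, in opposite directions. The main fits did not take the numbers as pairs and leave this link out, while the fits with the replicate number as a block take it in. With the replicate number as a block, 0 of the 36 genes were called in RNA-seq (1 without it), 0 in footprints (5 without it), 0 in the interaction, with the number as a block within each assay or with each genotype and number as a block across assays, and 35 in the ratio of footprints to RNA-seq in WT (35 without it). The joint fit of the 12 libraries gave 2 calls in RNA-seq. With 1 library left out, calls ranged from 0 to 0 in RNA-seq, from 3 (without WT or KO replicate 2) to 4 in footprints, and stayed at 0 in the interaction and 35 in the ratio. Over all genes the block left 110 calls against 943 in RNA-seq, 408 against 2376 in footprints and 2 against 25 in the interaction. For the counts with fewer samples the loss follows in part from construction; otherwise the cause was not tested. The ratio of Hnrnpul1 changed sign, at 0.025 in the KO libraries against -0.15 in WT. RLE size factors, DESeq2 and no low-count filter kept the 4 counts of called genes within 1.5 times. Without the filter the median ratio over all genes moved from -0.02 to 0.14, and with protein-coding genes alone the median ratio of the family was 0.36. The median of the family in footprints, -0.009, was between -0.02 and 0.03 over the alternatives, so its sign is not settled. Depth limits Srsf1 in RNA-seq and Hnrnpa3 in footprints most.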
